A study of Homo sapiens with 6 samples.

Results

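The genes described here belong to families of enzymes that write and erase methyl and acetyl groups on histone lysines, though not every member acts on histones. They were chosen by symbol from the count files: the KDM, KMT2, SETD, HDAC, SIRT and KAT series, with EHMT1, EHMT2, EZH1, EZH2, SUV39H1, SUV39H2, NSD1 and DOT1L. Of 26364 gene symbols in the files, 69 fell under these patterns, and 67 of them had 10 or more counts in at least 3 libraries. KDM4E and KDM5D did not reach that minimum. The 67 comprise 17 demethylase genes, 23 methyltransferase genes, 18 deacetylase genes, 7 acetyltransferase genes and 2 antisense RNAs, KDM4A-AS1 and KMT2E-AS1, which share the symbols but encode no enzyme. The same 67 genes passed the filter of the statistical test.

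Polyadenylated RNA was sequenced from ZR-75-30, an established human breast adenocarcinoma line of epithelial type. All cells had been infected with a lentivirus. The 3 control libraries came from cells given the control vector pLVX and the 3 CDK12 libraries from cells given pLVX-CDK12, so the control cells carry the vector too. The title of the series names a search for targets of CDK12, a kinase that phosphorylates RNA polymerase II during elongation. The labels call the replicates biological, without saying whether each came from a separate infection, so each p-value sets a difference against the variation among these 6 libraries only. As these are bulk samples, fewer cells expressing a gene and less RNA per cell cannot be told apart.

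Totals ran from 21178163 to 26543653 counts per library, and a count of 3, the limit that a count of 0 allows, is 0.113 to 0.142 CPM on the raw library totals, for counting error only. CPM is a depth-scaled count, and the levels given for genes also carry the TMM factor of each library. CDK12 itself ran from 72.8 to 81.8 CPM in the controls and from 2009 to 2240 CPM in the CDK12 libraries, so each library matched its label. All 12 breast epithelial markers were detected, with a summed level of 14537 to 15254 CPM in controls and 12951 to 13536 CPM with CDK12. ERBB2 made up the larger part of that sum, at 8656 ± 275 and 7357 ± 257 CPM, while MUC1 was higher with CDK12 (321 ± 18.2 and 405 ± 15.6 CPM). The 10 leukocyte markers summed to 5.60 to 6.91 CPM in controls and 3.71 to 3.90 CPM with CDK12, with CD3D at 0 throughout. PTPRC carried the difference, at 2.955 ± 0.11 and 0.36 ± 0.06 CPM, whereas CD14 was higher with CDK12 (0.48 ± 0.13 and 0.85 ± 0.19 CPM) and CD68 did not pass. The 11 fibroblast and endothelial markers, with COL1A1 the bulk of the sum, added up to 49.1 to 54.7 and 62.0 to 73.5 CPM. COL1A1 carried the rise (48.2 ± 2.51 and 63.8 ± 6.10 CPM), whereas COL3A1 was lower with CDK12 (0.60 ± 0.03 and 0.11 ± 0.07 CPM). COL1A2, KDR and PECAM1, not tested, lay lower with CDK12 without overlap. VWF did not pass, and the remaining markers were not tested and overlapped. The part of these shifts in the results was not tested. Among the CDK12 libraries, replicate 1 lay farthest from the others, with a chi-square per degree of freedom over genes of 4.54 and 4.43 against them, where replicates 2 and 3 differed by 2.74 and the control pairs by 2.90 to 2.94.

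Histone lysines are modified in opposing pairs of reactions. Acetyl groups, added by acetyltransferases and removed by deacetylases, loosen chromatin, while methyl groups mark active or silent chromatin according to the lysine that carries them. KMT2A, KMT2B, KMT2C, KMT2D and the SETD1 enzymes methylate H3K4 at enhancers and promoters. SETD2 and NSD1 methylate H3K36 and DOT1L methylates H3K79. EZH1 and EZH2 place H3K27 methylation as the catalytic subunits of Polycomb complex PRC2, and SUV39H1, SUV39H2, EHMT1 and EHMT2 place H3K9 methylation. KDM enzymes remove methyl groups from several of these lysines.

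Transcripts of these enzymes shifted little with CDK12. By edgeR's quasi-likelihood test with Benjamini-Hochberg adjustment over all 14665 genes tested, 18 of the 67 passed an adjusted p of 0.05. Of these, 7 were higher (KDM4D, EZH1, KDM3A, KDM5B, HDAC11, KDM7A and NSD1) and 11 were lower (SUV39H1, DOT1L, KDM5C, HDAC4, KMT2B, KAT5, SETD1B, HDAC7, KAT2A, KMT2D and SIRT2). The share of 26.9% compares with 35.1% of all genes tested, of which 16.2% were called higher and 18.9% lower. The median log2 fold change of the 67 was -0.01 (0.00 over all genes), and the median size of the change was 0.07 against 0.14 over all genes. Among well counted genes, with a mean of 100 counts, 17 of 63 members (27.0%) and 37.9% of all genes passed.

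The counts of members called in each direction moved with the scaling and when single libraries were left out. With upper-quartile factors 10 members were higher and 8 lower, and with total counts 11 and 8. These scalings moved the median gene up by 0.04 on the log2 scale. The balance over all genes moved too: higher genes were 46.1% of all calls with TMM, 59.6% with upper-quartile factors and 61.7% with total counts. Without control replicate 3 only 3 members were higher and 10 lower, and without CDK12 replicate 2 the counts were 4 and 10. Without CDK12 replicate 1 they were 8 and 9. Leaving out a library leaves 2 in its group, so fewer samples enter the test. No counts over all genes are given beside those of these 3 fits, so the counts are no result about the members as such. No member passed a test against a fold of 1.2 (edgeR glmTreat, 0 of 67, smallest adjusted p 0.0636, 2 at an unadjusted p under 0.05), which 6.4% of all genes did.

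**Figure D1:**
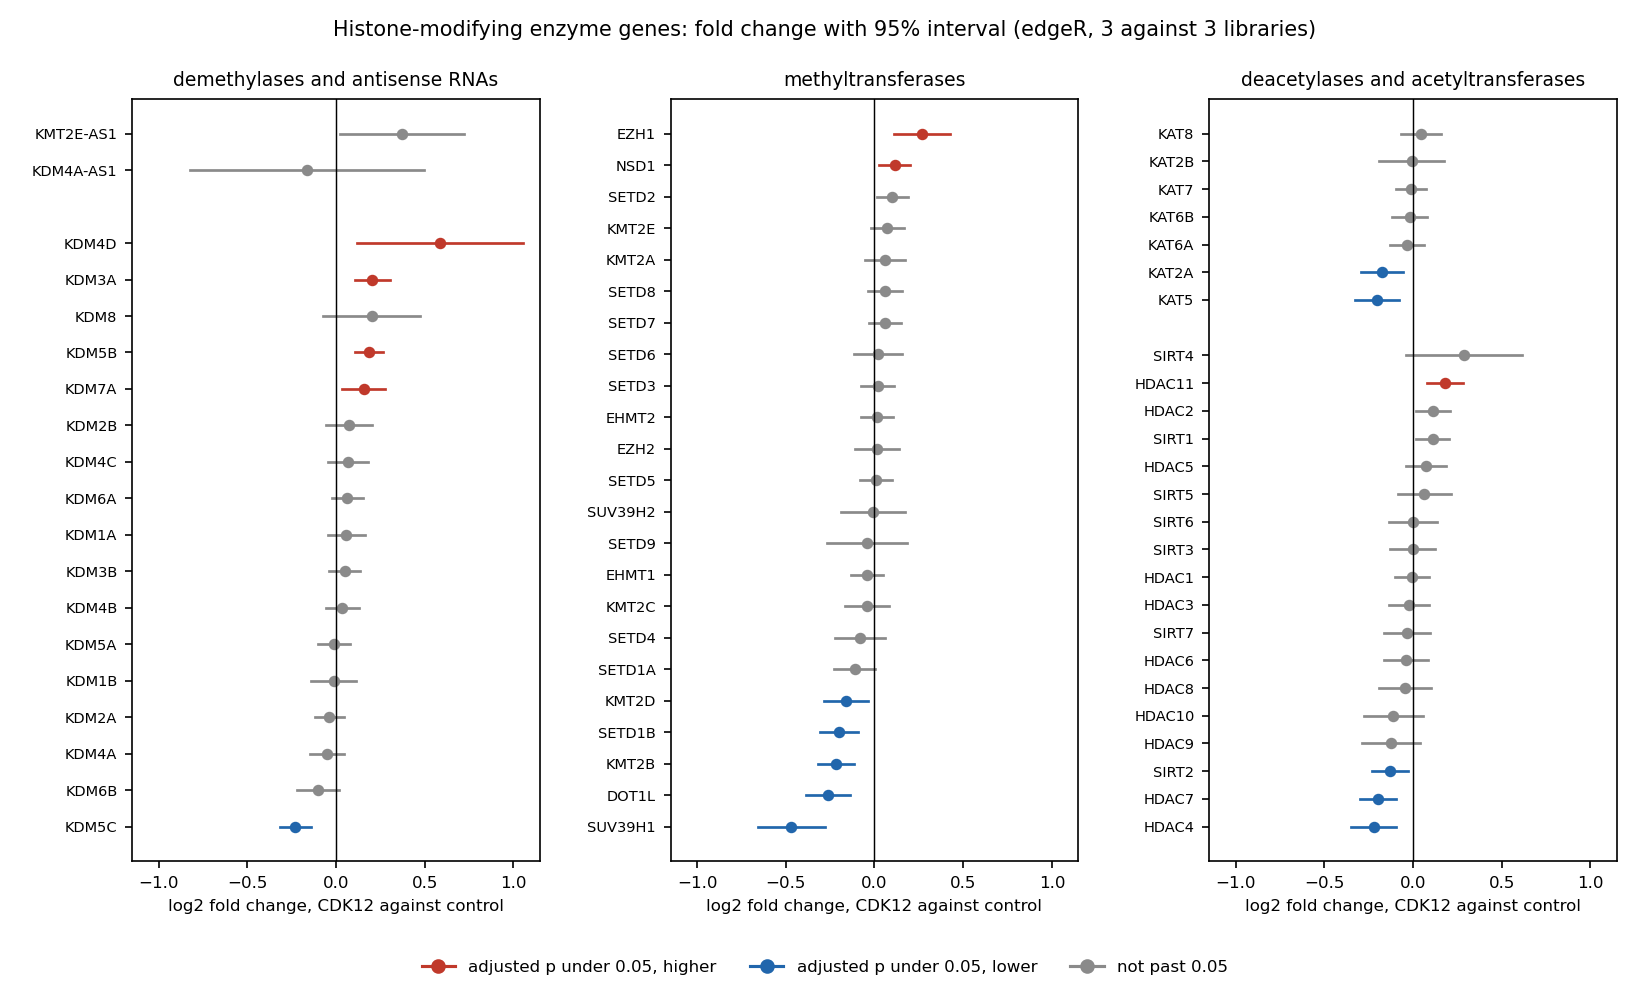
Log2 fold change (x axis, CDK12 against control) of each of the 67 genes, grouped by role, with bars for the 95% interval from the edgeR fit over 3 against 3 libraries. Most points lie near 0; the 7 higher genes run from 0.11 for NSD1 to 0.59 for KDM4D and the 11 lower genes from -0.47 for SUV39H1 to -0.13 for SIRT2.

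Demethylase genes held 4 of the 7 rises, of which those of KDM4D and KDM7A were lost under several alternatives. Of all genes tested, 16.2% were called higher. Of 17 tested, 4 rose, 1 fell and 12 stayed short of the threshold; the share called was 29.4% against 35.1% of all genes, and the median log2 change over all 17 was 0.06. The KDM5 enzymes, which remove H3K4 methylation, moved in opposite directions. KDM5C stood at 303, 290 and 295 CPM in the controls and at 238, 253 and 267 CPM in the CDK12 libraries, a log2 fold change of -0.23 (SE 0.04 by edgeR; adjusted p = 0.000154). KDM5B stood at 455, 459 and 447 CPM in controls and at 504, 535 and 510 CPM with CDK12 (log2 fold change 0.19, standard error 0.04; adjusted p = 0.000565 by the same test). Neither gene's groups overlapped: all 3 CDK12 libraries were below every control for KDM5C and above every control for KDM5B. KDM5A, their relative, had 128 ± 3.65 CPM among the controls and 127 ± 2.99 CPM given CDK12 (SD, n = 3 per group; log2 fold change -0.01, 95% interval -0.10 to 0.08).

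Scaled to the length of the exons, KDM5C and KDM5B were also among the most abundant members. In controls KDM5C had 43.2 CPM per kilobase of exon and KDM5B 32.4; in the CDK12 libraries they had 36.8 and 36.9. Averaged over all 6 libraries, KDM5C ranked first (40.0 CPM per kilobase), followed by the acetyltransferase gene KAT7 (36.7), KDM5B (34.6) and KDM2A (34.4). The lowest reported member was KDM4D, at 0.377 CPM per kilobase. Exon lengths came from GENCODE 29, which may differ from the annotation used for counting.

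The stretches before the annotated starts of KDM5C, SUV39H1, KDM5B and KDM3A are shown because these genes had the smallest p-values among the members lower (the first pair) and higher (the second pair) with CDK12. Each holds the 200 bases upstream of the RefSeq start on GRCh38.p14, read 5′ to 3′ on the gene's strand, and capitals mark matches to GGGCGG (the GC box of SP and KLF factors) or CCAAT on either strand.
KDM5C, chrX:53225208-53225407, minus strand: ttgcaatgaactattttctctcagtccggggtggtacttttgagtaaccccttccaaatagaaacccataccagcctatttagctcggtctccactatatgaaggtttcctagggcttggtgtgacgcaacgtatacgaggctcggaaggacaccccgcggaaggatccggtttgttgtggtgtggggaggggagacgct
SUV39H1, chrX:48695354-48695553, plus strand: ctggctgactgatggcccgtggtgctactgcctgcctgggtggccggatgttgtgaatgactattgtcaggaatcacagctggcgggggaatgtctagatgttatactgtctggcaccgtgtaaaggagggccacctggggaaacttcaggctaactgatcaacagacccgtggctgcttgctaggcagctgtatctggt
KDM5B, chr1:202808422-202808621, minus strand: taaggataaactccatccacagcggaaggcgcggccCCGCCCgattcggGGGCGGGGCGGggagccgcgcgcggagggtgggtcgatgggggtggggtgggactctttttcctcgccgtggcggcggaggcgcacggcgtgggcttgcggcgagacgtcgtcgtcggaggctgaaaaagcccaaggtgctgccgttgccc
KDM3A, chr2:86441171-86441370, plus strand: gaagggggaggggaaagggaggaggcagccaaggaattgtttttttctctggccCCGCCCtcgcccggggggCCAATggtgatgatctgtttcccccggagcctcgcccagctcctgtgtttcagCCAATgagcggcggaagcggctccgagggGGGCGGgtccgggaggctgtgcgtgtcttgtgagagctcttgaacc
The KDM5B window held 3 GC box matches, 2 of which overlap, and the KDM3A window 2 GC box and 2 CCAAT matches; the windows of KDM5C and SUV39H1 held neither. GC content was 51.5% for KDM5C, 55.5% for SUV39H1, 71% for KDM5B and 64.5% for KDM3A.

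Windows were found for 61 of the 67 members. GGGCGG was present in 6 of the 7 windows of higher members, in 2 of 9 of lower members and in 40 of the 61 (65.6%), against 40.1% of all 35116 RefSeq windows. The windows' median GC content was 71% for higher members, 61% for lower members, 69% for the 61 and 59% for all, and GGGCGG holds only G and C. CCAAT was present in 2 of 7 and 0 of 9, in 26.2% of the 61 and in 28.0% of all. CCGGAAG, the core of ETS sites, was present in 2 of 7 and 1 of 9 (7.71% of all windows). TGACGTCA, the cyclic AMP response element, and the palindromic NRF1 motif were in none of the higher or lower members' windows (1.57% and 0.977% of all). Both strands were searched, and 1 start was used per gene. These are descriptions of letters in short windows, and no binding was measured.

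KDM3A, which removes H3K9 methylation, stood at 86.2, 81.8 and 77.6 CPM in controls and at 98.8, 91.5 and 92.3 CPM with CDK12 (edgeR's log2 fold change 0.20, standard error 0.05; adjusted p = 0.00167). Its groups did not overlap, as was so for 20 of the 67 members (11 higher, 9 lower) against 45.6% of all genes (22.1% higher, 23.6% lower). KDM7A, a demethylase of H3K9 and H3K27, was at 50.3, 51.0 and 42.8 CPM in controls and at 52.4, 55.9 and 52.0 CPM with CDK12 (log2 fold change 0.16, standard error 0.06; adjusted p = 0.0419). Control replicate 3 was low for KDM7A, and without it the adjusted p was 0.35. KDM7A also did not pass without CDK12 replicate 2 (0.157) or with the DESeq2 Wald test (0.1).

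KDM4D, an H3K9 demethylase gene near the limit of counting, had the highest fold of all members. It had 22, 20 and 19 counts in controls and 33, 33 and 35 with CDK12, or 0.967, 0.959 and 0.771 CPM against 1.23, 1.36 and 1.46 CPM. The groups did not overlap, with a log2 fold change, by edgeR, of 0.59 (± 0.23 SE; adjusted p = 0.0472). It was not called by DESeq2's Wald test (adjusted p = 0.24), with no filter on low counts (0.0602) or when any library but CDK12 replicate 1 was left out (adjusted p from 0.0698 to 0.18).

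The other demethylase genes did not pass. KDM1A, the flavin-dependent H3K4 demethylase LSD1, was at 63.0 ± 1.38 and 65.6 ± 3.58 CPM (log2 fold change 0.06, 95% interval -0.04 to 0.16). The H3K27 demethylase genes KDM6A and KDM6B had log2 fold changes of 0.06 (95% interval -0.03 to 0.15) and -0.10 (-0.22 to 0.01). For KDM6A the 3 controls lay between 94.4 and 95.3 CPM and the CDK12 libraries between 96.3 and 101 CPM, so the groups did not overlap although the test was not passed (edgeR adjusted p = 0.266). In the KDM2, KDM3 and KDM4 series, KDM2A, KDM2B, KDM3B, KDM4A, KDM4B and KDM4C had log2 fold changes from -0.05 for KDM4A to 0.08 for KDM2B. KDM1B changed by -0.01, and KDM8, at 4.06 ± 0.52 and 4.68 ± 0.66 CPM, by 0.20 (95% interval -0.08 to 0.48).

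Methyltransferase genes held the largest fall. Of 23 tested, 2 rose, 5 fell and 16 stayed short of the threshold; the share called was 30.4% against 35.1% of all genes, and the median log2 change over all 23 was 0.01. SUV39H1, which places H3K9 trimethylation in heterochromatin, stood at 10.6, 10.1 and 10.8 CPM in controls and at 7.84, 6.84 and 8.13 CPM with CDK12. Every CDK12 library was below every control, with a log2 fold change of -0.47 (± 0.09 SE; a 1.38-fold lower level by edgeR; adjusted p = 0.000292). Its relative SUV39H2 was at 12.5 ± 1.68 and 12.4 ± 0.24 CPM (log2 fold change -0.01, 95% interval -0.19 to 0.17). EHMT1 and EHMT2, which place H3K9 mono- and dimethylation, had log2 fold changes of -0.04 and 0.02 and did not pass.

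DOT1L, the H3K79 methyltransferase, stood at 57.2, 53.2 and 56.8 CPM in controls and at 42.7, 45.2 and 51.7 CPM with CDK12. The groups did not overlap, though CDK12 replicate 3 came close to the lowest control (edgeR's log2 fold change -0.26, standard error 0.06; adjusted p = 0.00115). In the DOT1L and elongation partner list, 4 of 12 genes rose and none fell, a share called of 33.3% against 35.1% of all genes. MLLT6 went from 1633 ± 62.4 to 1843 ± 113 CPM, AFF4, a scaffold of the super elongation complex, from 329 ± 19.5 to 359 ± 14.6 CPM and EAF2 from 1.57 ± 0.34 to 2.32 ± 0.16 CPM.

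Of the 5 KMT2 genes, KMT2B and KMT2D fell, and of the SETD1 pair SETD1B fell. Sets this small cannot be read against the 18.9% of all genes called lower. KMT2B stood at 123, 110 and 119 CPM in controls and at 94.7, 101 and 108 CPM with CDK12 (edgeR's log2 fold change -0.22, standard error 0.05; adjusted p = 0.00135). SETD1B stood at 63.7, 62.7 and 64.8 CPM in controls and at 51.5, 56.2 and 58.7 CPM with CDK12 (log2 fold change -0.20, standard error 0.05; adjusted p = 0.00343). In both, all CDK12 libraries lay below the controls. SETD1A, the partner paralog of SETD1B, was at 49.3 ± 1.24 and 45.6 ± 3.41 CPM (log2 fold change -0.11, 95% interval -0.23 to 0.00).

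KMT2D, the enhancer H3K4 methyltransferase gene, rested on single libraries. It stood at 264, 234 and 230 CPM in controls and at 188, 234 and 231 CPM with CDK12 (edgeR's log2 fold change -0.16, standard error 0.06; adjusted p = 0.0367). Control replicate 1 was high and CDK12 replicate 1 low, while the other 4 lay between 230 and 234 CPM. Without control replicate 1 the log2 fold change was -0.10 (adjusted p = 0.263) and without CDK12 replicate 1 it was -0.06 (0.327), and the call was also lost with upper-quartile factors (0.103), total counts (0.124), a filter of 1 CPM (0.0503) and the DESeq2 Wald test (0.367). KMT2C, its paralog, read 190, 167 and 155 CPM in controls and 148, 180 and 168 CPM with CDK12, with overlap and no call (log2 fold change -0.04). KMT2A and KMT2E had log2 fold changes of 0.06 and 0.07 without passing.

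Of the PRC2 catalytic genes, EZH1 rose and EZH2 did not pass. EZH1 stood at 14.02, 14.8 and 12.8 CPM in controls and at 15.9, 17.3 and 16.7 CPM with CDK12, with no overlap (edgeR's log2 fold change 0.27, standard error 0.08; adjusted p = 0.00802; 0.0661 without control replicate 3). EZH2 was at 28.2, 28.97 and 27.2 CPM in controls and at 29.1, 27.3 and 28.7 CPM with CDK12 (log2 fold change 0.01, 95% interval -0.11 to 0.14). Among 11 PRC2 partner subunits 3 rose and none fell, a share called of 27.3% against 35.1% of all genes. EPOP, listed under the older symbol C17orf96, went from 115 ± 4.05 to 144 ± 2.88 CPM, PHF1, which guides PRC2 to chromatin, from 78.2 ± 5.27 to 91.4 ± 0.81 CPM and AEBP2 from 42.4 ± 1.19 to 48.5 ± 4.38 CPM.

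Of the H3K36 methyltransferase genes NSD1 rose and SETD2 did not pass. NSD1 stood at 235, 227 and 214 CPM in controls and at 238, 255 and 239 CPM with CDK12 (edgeR's log2 fold change 0.11, standard error 0.04; adjusted p = 0.0425). The groups did not overlap, but CDK12 replicate 1 exceeded control replicate 1 by little, and NSD1 missed the threshold with DESeq2 (0.0613) and on leaving out CDK12 replicate 2 (0.205), control replicate 2 (0.08) or control replicate 3 (0.241). SETD2, which trimethylates H3K36 behind the elongating polymerase, was at 169, 171 and 159 CPM in controls and at 176, 184 and 174 CPM with CDK12. Its groups did not overlap, with a log2 fold change of 0.10 (SE 0.04) and an adjusted p of 0.0665 by edgeR's quasi-likelihood test. It passed with total counts (adjusted p = 0.00985), with upper-quartile factors (0.0122) and without CDK12 replicate 1 (0.0486). Among the alternatives that left SETD2 uncalled were the DESeq2 Wald test (adjusted p = 0.096) and edgeR with no filter on low counts (0.0853). SETD3, SETD4, SETD5, SETD6, SETD7, SETD8 and SETD9, some of which act mainly on other proteins, did not pass, with log2 fold changes from -0.08 for SETD4 to 0.06 for SETD8, the H4K20 methyltransferase now named KMT5A.

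Most deacetylase genes did not pass. Of 18 tested, 1 rose, 3 fell and 14 stayed short of the threshold; the share called was 22.2% against 35.1% of all genes, and the median log2 change over all 18 was -0.01. None of the 4 class I genes passed: HDAC1 was at 67.1 ± 1.59 and 66.7 ± 0.75 CPM (log2 fold change -0.01, 95% interval -0.10 to 0.09), HDAC3 at 49.7 ± 3.02 and 49.0 ± 1.41 CPM (-0.02, -0.13 to 0.09) and HDAC8 changed by -0.04. HDAC2 was at 94.2, 99.3 and 95.4 CPM in controls and at 110, 104 and 98.05 CPM with CDK12, overlapping in CDK12 replicate 3 (log2 fold change 0.11, edgeR adjusted p = 0.0628). It passed with upper-quartile factors (0.0138), with total counts (0.0109) and without CDK12 replicate 3 (0.0188). Among the alternatives that left HDAC2 uncalled were the DESeq2 Wald test (adjusted p = 0.12) and edgeR with no filter on low counts (0.0738).

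Of the 4 class IIa deacetylases, which shuttle between nucleus and cytoplasm, 2 fell and 2 did not pass. Of all genes tested 18.9% were called lower, and a set of 4 is too small to set against that share. HDAC4 stood at 33.6, 31.8 and 31.2 CPM in controls and at 26.8, 26.8 and 29.3 CPM with CDK12 (edgeR's log2 fold change -0.22, standard error 0.06; adjusted p = 0.00639). HDAC7 stood at 95.3, 88.2 and 92.8 CPM in controls and at 75.8, 79.8 and 85.7 CPM with CDK12 (log2 fold change -0.20, standard error 0.05; adjusted p = 0.00264). Neither gene's groups overlapped. HDAC5 and HDAC9, of the same class, changed by 0.08 and -0.13 without passing, as did the class IIb genes HDAC6 (-0.04) and HDAC10 (-0.11).

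HDAC11, the only class IV deacetylase, was the sole deacetylase gene to rise. It stood at 57.5, 54.2 and 57.6 CPM in controls and at 63.2, 62.9 and 65.8 CPM with CDK12, without overlap (edgeR's log2 fold change 0.18, standard error 0.05; adjusted p = 0.00551). Among the sirtuins, the NAD-dependent deacylases, SIRT2 was the 1 called of 7 (14.3% against 35.1% of all genes). SIRT2 was at 72.9, 67.7 and 71.1 CPM in controls and at 63.2, 62.5 and 67.9 CPM with CDK12, with CDK12 replicate 3 inside the control range (edgeR's log2 fold change -0.13, standard error 0.05; adjusted p = 0.0419). That call was lost in 9 of 14 alternatives other than the fold of 1.2, among them total counts (adjusted p = 0.171), upper-quartile factors (0.146), DESeq2 (0.0958) and the omission of control replicate 1 (0.183), control replicate 3 (0.118), CDK12 replicate 1 (0.0999) or CDK12 replicate 2 (0.153).

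SIRT1, a nuclear sirtuin, was at 88.4, 91.6 and 86.0 CPM in controls and at 98.1, 95.3 and 93.8 CPM with CDK12. Its groups did not overlap, and the log2 fold change of 0.11 (SE 0.04) had an adjusted p of 0.0537 by edgeR's quasi-likelihood test. It lay past the threshold with a filter of 1 CPM (0.0407), DESeq2's size factors (0.0485), upper-quartile factors (0.0104), total counts (0.0084) and without control replicate 2 (0.0471). Among the alternatives that left SIRT1 uncalled were the DESeq2 Wald test (adjusted p = 0.0972) and edgeR with no filter on low counts (0.0822). SIRT3, SIRT5, SIRT6 and SIRT7 had log2 fold changes from -0.03 for SIRT7 to 0.06 for SIRT5, and SIRT4, at 2.38 ± 0.31 and 2.93 ± 0.36 CPM, of 0.29 (95% interval -0.04 to 0.61).

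Of the 7 acetyltransferase genes 2 fell and none rose; the share called was 28.6% against 35.1% of all genes, and the median log2 change over the 7 was -0.02. KAT5, the catalytic subunit TIP60 of the NuA4 complex, stood at 39.1, 38.0 and 35.2 CPM in controls and at 33.5, 33.2 and 30.8 CPM with CDK12 (edgeR's log2 fold change -0.20, standard error 0.06; adjusted p = 0.0094). KAT2A, the catalytic subunit GCN5 of SAGA, stood at 40.6, 42.8 and 38.4 CPM in controls and at 35.5, 35.1 and 37.1 CPM with CDK12 (log2 fold change -0.18, standard error 0.06; adjusted p = 0.0182). The CDK12 libraries of both lay below all controls. KAT5 did not pass without control replicate 1 (0.0602) or CDK12 replicate 3 (0.055), and KAT2A not without control replicate 2 (0.094), without CDK12 replicate 2 (0.0641), with upper-quartile factors (0.0571) or with total counts (0.0688).

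The other acetyltransferase genes did not pass. KAT2B, KAT6A, KAT6B, KAT7 and KAT8 had log2 fold changes from -0.03 for KAT6A to 0.04 for KAT8. KAT7, at 367 ± 15.6 and 364 ± 9.61 CPM, had a 95% interval of -0.10 to 0.07.

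**Figure D2:**
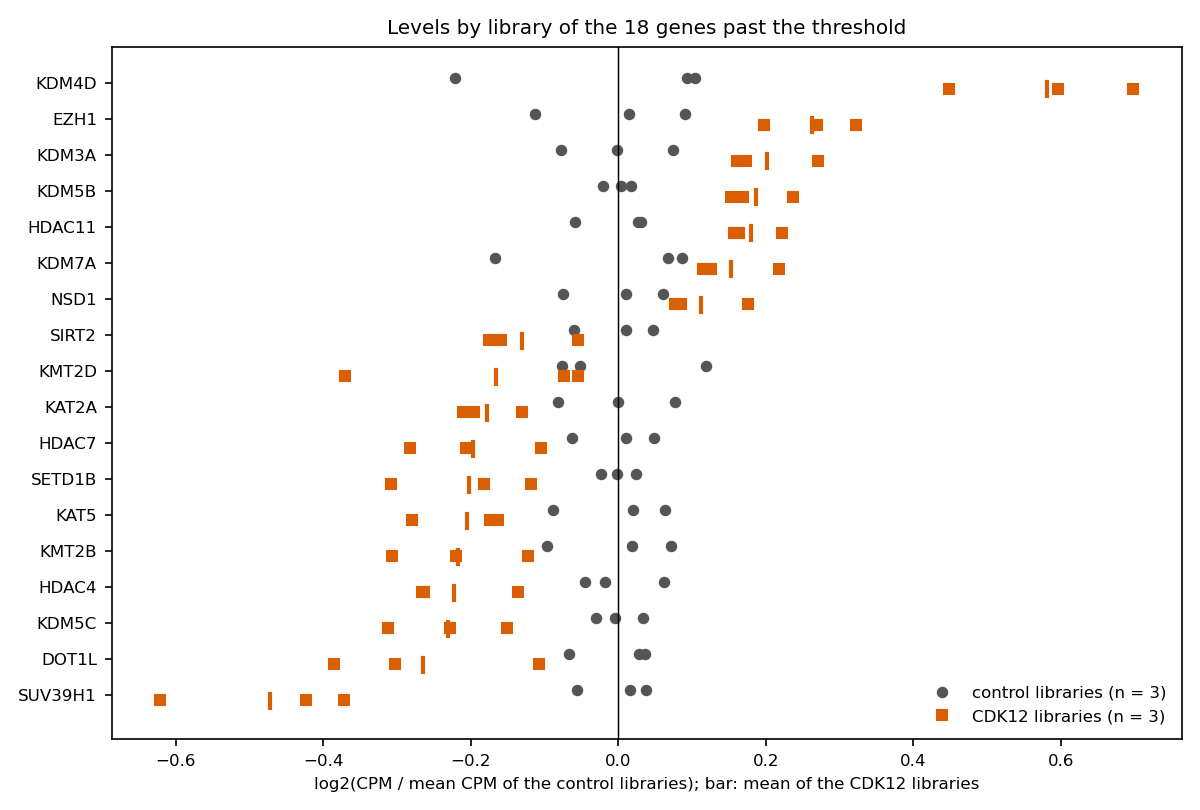
Level of each of the 18 called genes in each library, as log2 of its CPM over the mean CPM of the 3 controls (x axis; circles: controls, squares: CDK12 libraries, bar: mean of the CDK12 libraries). The groups part in 16 genes and overlap in KMT2D, where CDK12 replicate 1 lies apart at 188 CPM, and in SIRT2. These genes were chosen by their p-values on the same libraries, so the parting is no separate result. Of all genes tested, 45.6% did not overlap.

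Of the 18 calls, 10 held in all 14 alternatives other than the fold of 1.2: KDM5B, KDM3A, HDAC11, SUV39H1, DOT1L, KDM5C, HDAC4, KMT2B, SETD1B and HDAC7. The 18 kept their signs in each.

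Related enzymes were then compared within each library, since the ratio of 2 counts does not depend on the scaling. Most of the ratios named below hold a gene already called on the same libraries. They restate those calls in part and are no separate support for them. Of 24 pairs of relatives, which share some genes, the CDK12 and control libraries did not overlap in 14. Among single genes 45.6% did not overlap, and no share was computed over other gene pairs, so the count is no result about relatives as such. The exact two-sided permutation test gave these p = 0.1, the smallest that 3 against 3 libraries allow, and 0.171 after Benjamini-Hochberg adjustment over the 24 pairs, so none could pass 0.05. The log2 ratio of KDM5C to KDM5B was -0.62 ± 0.04 in controls and -1.03 ± 0.08 with CDK12 (SD, n = 3 per group), and that of SUV39H1 to SUV39H2 went from -0.24 ± 0.23 to -0.70 ± 0.16. HDAC4 to HDAC5 went from -0.27 ± 0.03 to -0.56 ± 0.05, and KAT5 to KAT8 from -0.37 ± 0.12 to -0.62 ± 0.10.

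Other ratios were higher with CDK12. KMT2A to KMT2B went from -0.39 ± 0.12 to -0.12 ± 0.07 on the log2 scale and EZH1 to EZH2 from -1.02 ± 0.06 to -0.77 ± 0.11. SIRT1 to SIRT2 went from 0.33 ± 0.09 to 0.57 ± 0.09, and KDM6A to KDM6B from 0.90 ± 0.05 to 1.07 ± 0.07. In the 10 pairs with overlap the mean differences ran from -0.16 for KAT2A to KAT2B to 0.15 for KDM3A to KDM3B, and KAT6A to KAT6B differed by -0.01.

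**Figure D3:**
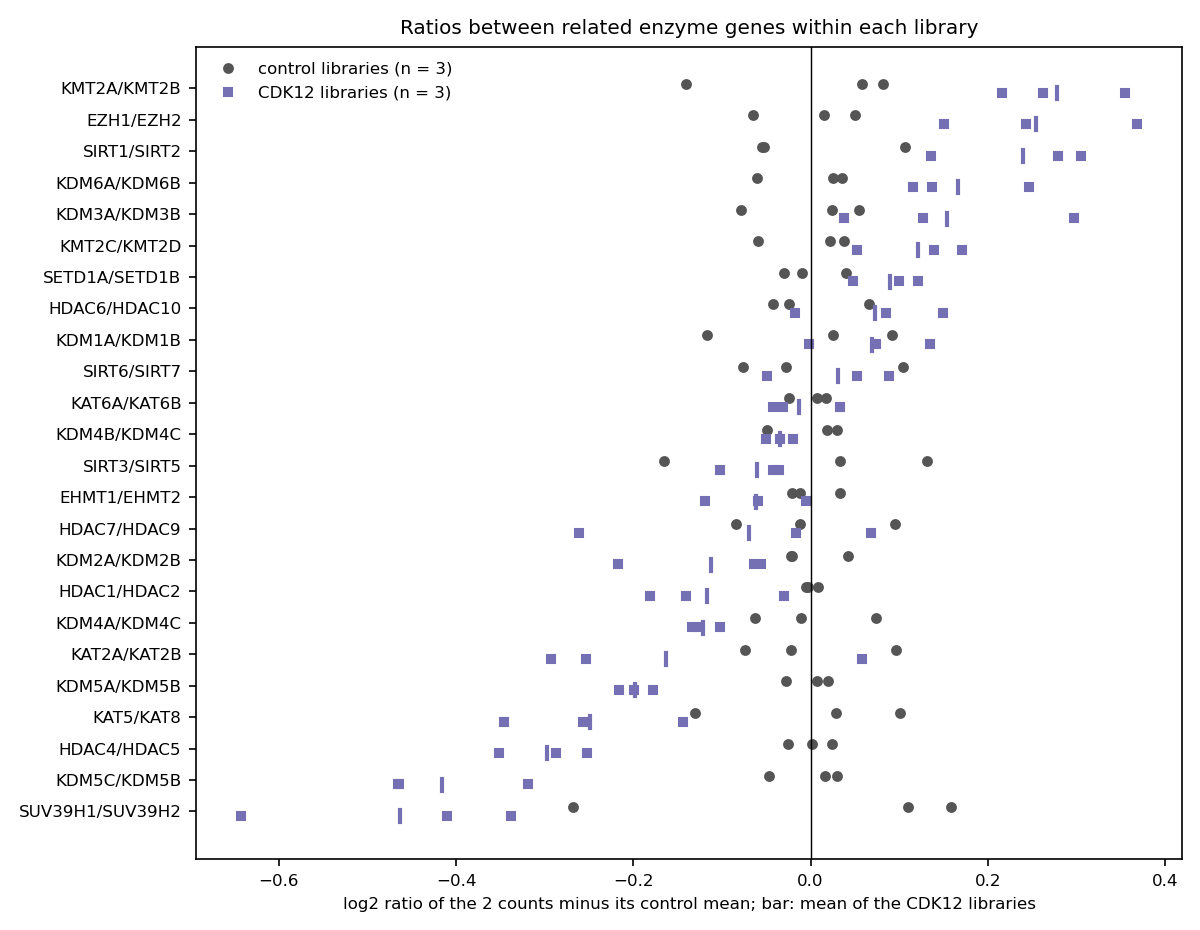
Log2 ratio of the counts of 2 related genes within each library, minus the mean of the 3 controls (x axis; circles: controls, squares: CDK12 libraries, bar: mean of the CDK12 libraries). The extremes are SUV39H1/SUV39H2, with a mean of -0.46, and KMT2A/KMT2B, with 0.28.

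Transcript base composition differed between the members that rose and fell. The longest transcript of the 11 lower members had a median GC content of 59.1% (range 54.9% to 63.5%), that of the 7 higher members 47.2% (38.5% to 61.0%) and that of members not called 48.5%. Of the higher genes, HDAC11, at 61.0%, lay in the range of the lower ones. Over all genes tested the medians were 53.4% for lower and 46.1% for higher calls. Across the 67 members, log2 fold change and GC content had a Pearson correlation of -0.29 and a Spearman correlation of -0.32, and across 14276 genes 0.03 and -0.13. Among genes with a mean of 100 counts the values were -0.44 and -0.42 across 63 members and -0.17 and -0.28 across 11010 genes; the points share the same libraries and genes are not replicates.

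When the trend of each library with GC content was removed in the fit, a step added after the data were seen, 7 members were higher and 10 lower. Over all genes 2462 were then higher and 3045 lower, against 2371 and 2772 in the main fit. KMT2D (adjusted p = 0.0612) and KDM7A (0.0816) then did not pass and SETD2 did (0.0421). SUV39H1 (log2 fold change -0.45), DOT1L (-0.25) and KDM5C (-0.22) remained lower, and KDM5B (0.18), KDM3A (0.20) and EZH1 (0.27) higher. For the span of the gene, the Spearman correlation with log2 fold change was 0.13 across members and -0.05 across all genes. The Pearson correlation with log2 span was -0.02 and -0.13. Among genes with a mean of 100 counts the Spearman values were 0.22 and 0.05 and the Pearson values 0.20 and 0.01. The median span was 52070 bases for higher and 28405 for lower members, and 30833 and 29674 over all genes.

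**Figure D4:**
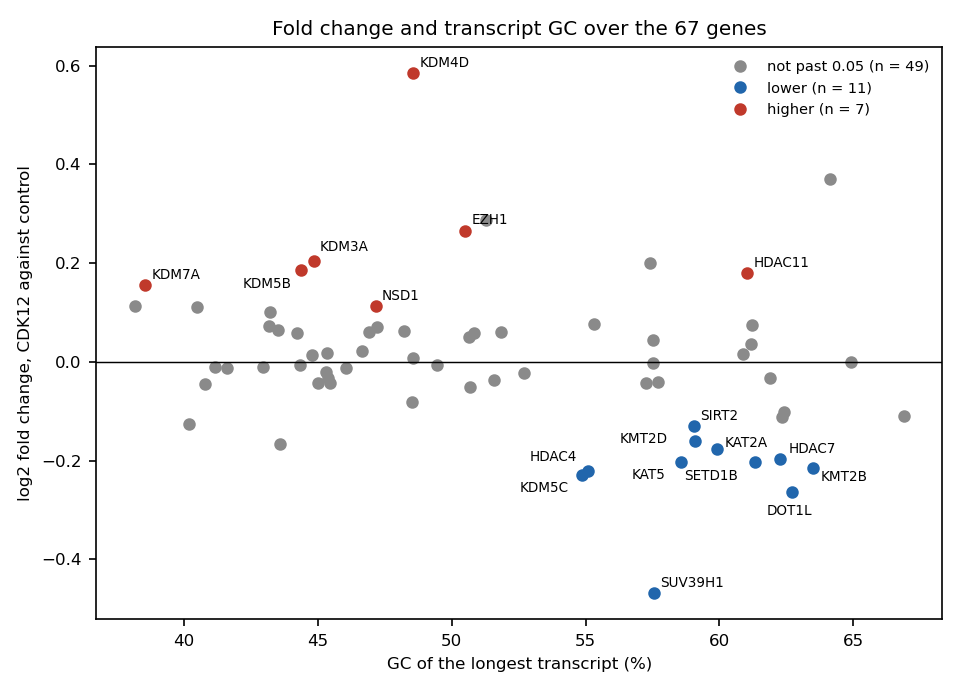
Log2 fold change (y axis) against the GC content of the longest transcript in percent (x axis) for the 67 genes; blue points are lower, red points higher and grey points not past the threshold. The 11 lower genes lie between 54.9% and 63.5% GC, and 6 of the 7 higher genes lie to their left, with HDAC11 at 61.0%.

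Enzymes outside these symbol series and the partners of the enzymes were read from 10 lists. Over the lists 34 of 165 tested genes rose and 20 fell, a share of 32.7% against 35.1% of all genes, with a median log2 fold change of 0.01; with total counts 49 were higher and 10 lower, and with upper-quartile factors 46 and 11. Over all genes the higher share of calls moved too, from 46.1% with TMM to 59.6% with upper-quartile factors and 61.7% with total counts. Without control replicate 3 the list counts were 21 and 13, and without CDK12 replicate 2 21 list genes were higher. No counts over all genes are given beside these. Of 14 further genes listed as lysine methyltransferases 2 rose and 3 fell, a share of 35.7% against 35.1% of all genes. The list also held METTL4, an adenine methyltransferase of nucleic acids, which did not pass. SMYD2 went from 58.1 ± 2.66 to 43.2 ± 2.36 CPM (edgeR's log2 fold change -0.43, standard error 0.05; adjusted p = 6.94e-07) and SMYD3, also a SET and MYND domain enzyme, ranged from 76.7 to 80.2 CPM in controls and from 59.5 to 65.2 CPM with CDK12. KMT5C (listed as SUV420H2), which methylates H4K20, fell by 0.20 on the log2 scale. NSD3 (listed as WHSC1L1), a relative of NSD1, and ASH1L, an H3K36 methyltransferase gene, rose with log2 fold changes of 0.17 and 0.13.

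Of 7 arginine methyltransferase genes PRMT9 rose (log2 fold change 0.27) and PRMT2 (-0.19) and CARM1 (-0.14) fell. The share called was 42.9% against 35.1% of all genes. Among 11 further acetyltransferases (18.2% called) ESCO1, which acts on cohesin, rose (0.30) and CREBBP, the CBP coactivator, fell (-0.13). Of 9 further genes listed as demethylases (22.2% called) HR (0.38) and JMJD6 (0.20) rose and none fell. This list shares JARID2 with that of the PRC2 partner subunits.

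Of 13 partner subunits of the H3K4 methyltransferases 2 rose and 2 fell, a share of 30.8% against 35.1% of all genes. HCFC1 went from 162 ± 7.83 to 129 ± 11.8 CPM and WDR5, a core subunit, from 64.8 ± 0.74 to 57.8 ± 2.92 CPM. HCFC2 (log2 fold change 0.18) and PSIP1 (0.20) rose. Of 32 scaffolds and partners of HDAC complexes 7 rose and 6 fell, a share of 40.6% against the same 35.1%. PHF21A, a subunit of the LSD1 complex, went from 44.1 ± 0.84 to 54.4 ± 0.66 CPM, RCOR2 from 2.07 ± 0.40 to 3.47 ± 0.49 CPM and ARID4B, of the SIN3 complex, from 177 ± 10.1 to 198 ± 0.87 CPM. MIDEAS (listed as ELMSAN1) went from 96.6 ± 6.19 to 79.5 ± 3.24 CPM, BRMS1 from 53.1 ± 0.78 to 44.0 ± 0.93 CPM and MTA2, a NuRD subunit, from 152 ± 4.01 to 135 ± 3.25 CPM.

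Of 33 acetyltransferase complex partners 3 rose, ZZZ3, JADE1 and MBIP, and 2 fell, MEAF6 and TADA3. The share called was 15.2% against 35.1% of all genes. Of 24 readers of methyl and acetyl lysine 9 rose and 4 fell, a share of 54.2% against the same 35.1%. ATF7IP, the partner of the H3K9 methyltransferase SETDB1, rose by 0.23 and MPHOSPH8, an H3K9 methyl reader, by 0.23, while TRIM28, the corepressor that recruits SETDB1, fell by 0.15, UHRF1 by 0.26 and BRD9 by 0.25, all on the log2 scale.

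The 2 antisense RNAs had few counts, and whether the counting used strand is not given in the sources used here, so their reads cannot be told from those of overlapping genes. KMT2E-AS1 was at 2.15, 1.63 and 1.91 CPM in controls and at 2.23, 2.64 and 2.54 CPM with CDK12 (edgeR's log2 fold change 0.37, standard error 0.17; adjusted p = 0.0915). KDM4A-AS1 had 9 to 21 counts per library and a log2 fold change of -0.17 (95% interval -0.83 to 0.49).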

How the data were processed

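The authors deposited raw counts of reads per gene symbol, 1 file per library. CASAVA 1.8, STAR 2.6.0c, featureCounts from Subread 1.6.2 and build hg19 are named, per the submitters' processing notes. For strand setting, annotation and multiply mapped reads: not given in the sources used here. Genes were kept by filterByExpr (minimum count 10, total 15) and tested with edgeR 4.0.16 (TMM, quasi-likelihood F test, group as the only term, two-sided, Benjamini-Hochberg over 14665 genes, threshold 0.05). SE is the log2 fold change over the root of F. Levels are TMM-scaled CPM. The members and lists were chosen with earlier results of these data known. Named members were those past the threshold (library values for the up to 4 of smallest p per role and direction) and a preset list of well-known enzymes; other members appear as relatives or in ranges. Named list genes were the up to 3 of smallest p per direction among calls. Symbols were matched through RefSeq synonyms; gene properties came from GENCODE 29 and promoter letters from RefSeq, both on GRCh38 builds. Alternatives were other scalings, filters, the DESeq2 1.42.0 Wald test, glmTreat, a replicate block, GC removal and leaving out each library. The test was also tested on simulated data. The values of 1 list gene are not reported here.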

Additional observations from a re-analysis of the deposited data

How the results depend on the processing

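Higher genes made up 46.1% of all calls with TMM, 46.9% with DESeq2's size factors, 59.6% with upper-quartile factors and 61.7% with total counts. With the DESeq2 Wald test 1496 genes were higher and 2254 lower, with 4 members higher and 9 lower, and 26 partner genes higher and 13 lower. Against a fold of 1.2 (glmTreat), 459 genes were higher and 479 lower, with 0 members in either direction and 1 partner gene higher and 1 lower. With total counts 11 members were higher, the members' median log2 fold change was 0.03577 and 10 partner genes were lower; HDAC1 (0.03577) and HDAC3 (0.01931) changed sign without passing. With upper-quartile factors the median was 0.03025, 11 partner genes were lower, and HDAC1 (0.03025) and HDAC3 (0.01353) changed sign without passing; both scalings shift the genes up. Leaving out each library in turn gave 3 to 8 members higher and 8 to 11 lower. Partner genes ran from 21 to 36 higher and from 13 to 20 lower, with no counts over all genes beside these. In the same series some values near 0 changed sign: EZH2 ran from -0.007533 to 0.04087, KMT2C from -0.1099 to 0.041, HDAC1 from -0.01781 to 0.009529 and HDAC3 from -0.06611 to 0.02718 on the log2 scale. The log2 ratios ran from -0.1388 to 0.02634 for HDAC7/HDAC9, -0.03668 to 0.001144 for KAT6A/KAT6B, -0.1429 to 0.005219 for SIRT3/SIRT5 and -0.007282 to 0.08286 for SIRT6/SIRT7. With an arm of 2 libraries fewer samples enter; the cause of the other changes was not tested. Same-numbered libraries did not deviate together (correlations of -0.07, 0.06 and 0.03), though this check cannot exclude a pairing by design. With the replicate block in the edgeR fit 7 members were higher and 10 lower, and 2330 genes higher and 2776 lower. In that fit KDM4D (adjusted p = 0.064) and KMT2D (0.0972) were not called and SIRT1 (0.049) was. Genes under about 100 counts per library, such as KDM4D, SIRT4 and the antisense RNAs, have wider intervals than most.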
